A study of Mus musculus with 9 samples.

Results

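Rod photoreceptors make up most of the cells of the mouse retina, and the genes described here encode the proteins with which they turn light into an electrical signal. The set holds 34 genes of rod phototransduction and the rod outer segment, of 23889 genes tested in the series. Its members were chosen by name and role and not by a cut-off on measured values, though with earlier results of these data known. Each was found on the array through the RefSeq transcript accession of its probes. All 34 genes were matched, by 47 of 39429 probes. Every one of the 47 probes was well above background on all 9 arrays, so no member was lost to the filter on dim probes and the labelled tissue carried its defining transcripts throughout.

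The study measured retinal RNA of adult male C57BL/6 mice on single-colour Agilent arrays. There were 3 groups, each of 12 mice injected into the vitreous of the right eye and sampled 7 days later. The control group received phosphate-buffered saline (PBS), and the other groups received the peptides AAP or HAN, both described in the series title as binding vascular endothelial growth factor (VEGF). The labels give 1 µM for all 3 groups, PBS included, so the figure cannot be read as a dose of the peptides alone. Each array measured RNA of 4 pooled retinas, so a group is 3 pools, and p-values measure the spread between pools and not between mice. All 3 groups had been injected, so the comparisons do not measure the injection itself.

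In darkness, a rod keeps cGMP-gated channels open in its outer segment, a stack of membrane discs. Light activates the visual pigment, which switches on the G protein transducin. Transducin activates a phosphodiesterase that breaks down cGMP, and the channels close. A kinase, arrestin and a GTPase-accelerating protein then end the response, while guanylate cyclases and their calcium-sensing activators restore cGMP. In bulk RNA, fewer rods and less RNA per rod cannot be told apart. Several members, among them Gnb1, Prph2, Rcvrn, Guca1a and Abca4, are also used by cones or other cells.

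Rod transcripts differed little between the groups. None of the 34 genes passed the test in AAP against PBS, in HAN against PBS or in AAP against HAN (limma, Benjamini-Hochberg adjusted p over all genes, threshold 0.05). Over all genes tested, 0.00419% were called in AAP against PBS, 0.00419% in HAN against PBS and 0% in AAP against HAN. At an unadjusted p under 0.05 there were 1, 2 and 2 rod genes, which is 2.94%, 5.88% and 5.88% of them, against 6.78%, 9.66% and 8.54% of all genes. The test called 1 transcript over all genes in each comparison with PBS, ENSMUST00000072628, which is not a rod gene.

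Most intervals of the differences lay within 1.5-fold. Levels are given as log2 of the processed signal minus the array's 75th percentile, called the scaled level below. In AAP against PBS the log2 differences ran from -0.25 (Rcvrn) to 0.31 (Rgs9), and the 95% interval lay within 1.5-fold in either direction for 33 of 34 genes. In HAN against PBS they ran from -0.32 (Aipl1) to 0.07 (Rgs9), with 31 of 34 intervals within 1.5-fold. In AAP against HAN they ran from -0.03 (Impg1) to 0.36 (Abca4), with 28 of 34 intervals within 1.5-fold. Over all 23889 genes, 18057, 17858 and 17599 intervals lay within 1.5-fold in the 3 comparisons in turn. The model behind these intervals holds no term for the slide.

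**Figure D1:**
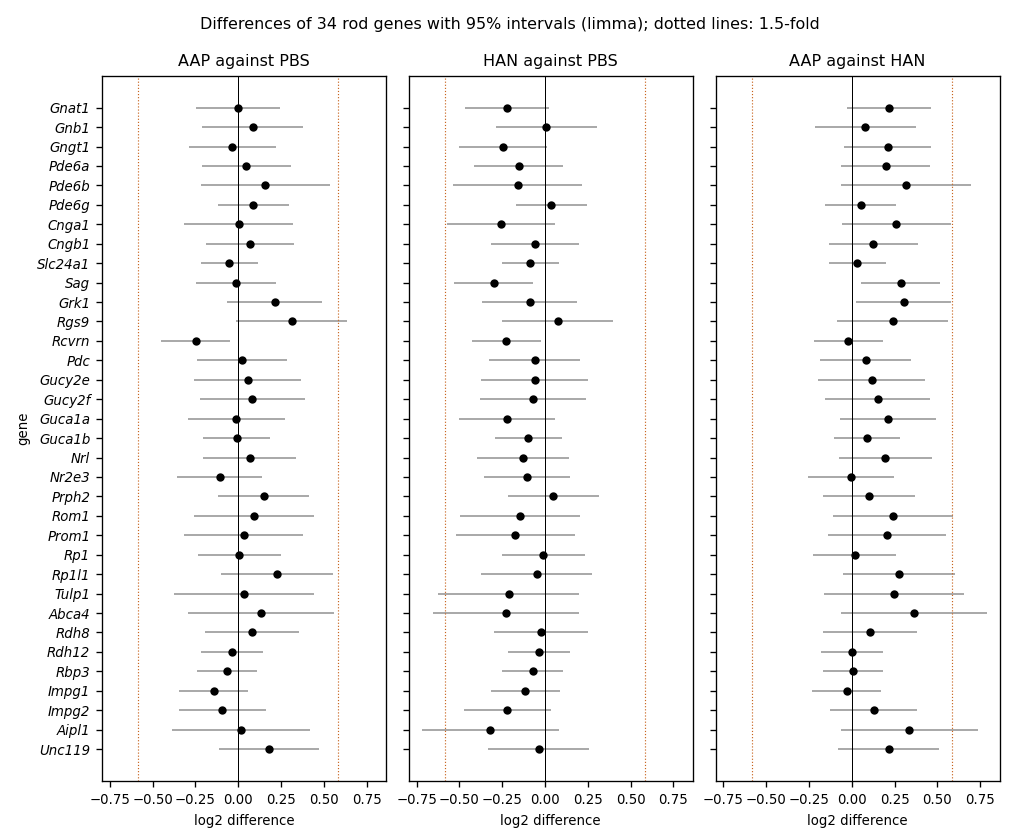
Log2 difference (x axis) of each of the 34 rod genes (y axis) in the 3 comparisons, with 95% intervals from the limma model and dotted lines at 1.5-fold. No gene passed the adjusted threshold; the HAN against PBS points lie mostly left of 0 (30 of 34) and the AAP against HAN points mostly right of it (30 of 34), while in AAP against PBS 23 of 34 lie right of 0 under this scaling and 12 or 13 under centring on inner retinal neurons or quantile normalization.

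As a set, the rod genes had slightly negative median differences in HAN from both other groups, while the pools of HAN and PBS overlapped and shared no slide. In HAN against PBS 30 of 34 genes had a negative difference, with a median of -0.10, where the median over all genes was 0.0049. In AAP against HAN 30 of 34 had a positive difference, with a median of 0.17, where all genes had 0.0015. Both medians kept their sign under each of 5 other scalings of the arrays, from -0.22 to -0.057 and from 0.096 to 0.22. In AAP against PBS the median was 0.033 with 23 of 34 genes higher, and it turned to -0.055 with quantile normalization and -0.042 with arrays centred on inner retinal neurons. The comparisons with PBS share the PBS pools, and genes of one set are not independent, so these counts describe the 9 pools and carry no test.

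The rod genes moved together from pool to pool, and this spread within groups was as wide as the differences between them. Averaged over the 34 genes and set against the PBS mean, the scaled level was -0.16, 0.11 and 0.04 in PBS 1, PBS 2 and PBS 3. It was -0.12, 0.02 and 0.22 in AAP 1, AAP 2 and AAP 3, and -0.10, -0.10 and -0.16 in HAN 1, HAN 2 and HAN 3. AAP 3 and PBS 2 thus stood highest and HAN 3 and PBS 1 lowest, and both the AAP and the HAN values overlapped those of PBS.

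Within PBS and AAP most members shared the lowest and the highest pool. PBS 1 was the lowest of the PBS pools for 33 of 34 rod genes, as it was for 42.2% of all genes, and PBS 2 was the highest for 24, against 40.1% of all genes. AAP 1 was the lowest AAP pool for 31 rod genes and AAP 3 the highest for 28, against 37.2% and 43.1% of all genes. In HAN the order was more mixed, with HAN 1, HAN 2 and HAN 3 highest for 15, 11 and 8 rod genes and lowest for 8, 6 and 20. Over the 9 arrays AAP 3 was the highest for 23 rod genes (26.7% of all genes) and HAN 3 the lowest for 15 (11.1% of all genes). The median of all genes moved little, from -0.024 in HAN 1 to 0.032 in HAN 3 against the PBS mean.

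**Figure D2:**
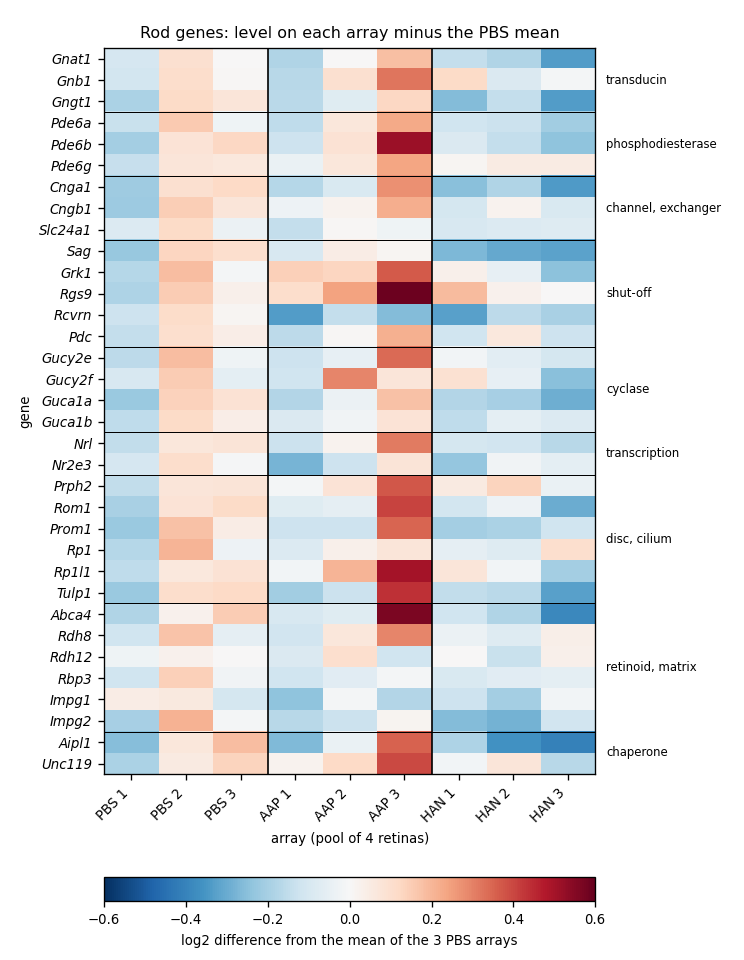
Scaled log2 level of each rod gene (rows, grouped by role) on each of the 9 arrays (columns) minus the mean of the 3 PBS arrays. PBS 2 lies above the PBS mean for 34 of 34 genes and AAP 3 for 29, while PBS 1 lies below it for 33, AAP 1 for 31 and HAN 3 for 29.

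The bases before a listed transcript start of some members were also examined for motifs of rod transcription factors. CRX, the cone-rod homeobox protein, is known to bind sites with the core TAATCC, and NRL binds sites that contain TGCTGA. RefSeq promoter windows of the build GRCm38.p6 were matched for 27 of the 34 genes, in 30 windows, and the 250 bases before the listed transcript start were searched for each motif on both strands. Neither motif contains the other. TAATCC or its reverse complement GGATTA was found in 11 of 30 windows (36.7%), against 6.25% of 32851 windows of the same length. TGCTGA or TCAGCA was found in 7 of 30 (23.3%), against 16.1%. These are matches of letters and not measured binding. Whether the motifs have a part in the shared spread between pools was not tested. Of 17 genes whose values on each array are described in the text, 14 had a window. The 8 windows below were picked to show the CRX core: they are all 7 of those genes that hold it, and that of Grk1 as an example without it. Each is written 5′ to 3′ along the gene's strand, with TAATCC or GGATTA in capitals.
Gngt1, chr6:3993758-3994007, plus strand: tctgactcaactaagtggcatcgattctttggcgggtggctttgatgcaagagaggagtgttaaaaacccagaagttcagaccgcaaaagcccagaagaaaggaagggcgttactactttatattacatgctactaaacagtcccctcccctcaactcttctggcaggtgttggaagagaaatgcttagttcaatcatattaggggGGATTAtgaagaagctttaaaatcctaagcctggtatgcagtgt
Cnga1, chr5:72642753-72643002, minus strand: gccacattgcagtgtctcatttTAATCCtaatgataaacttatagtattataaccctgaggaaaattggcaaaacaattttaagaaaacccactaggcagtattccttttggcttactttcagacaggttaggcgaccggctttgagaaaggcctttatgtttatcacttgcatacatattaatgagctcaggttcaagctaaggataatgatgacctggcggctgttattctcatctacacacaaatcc
Sag, chr1:87803430-87803679, plus strand: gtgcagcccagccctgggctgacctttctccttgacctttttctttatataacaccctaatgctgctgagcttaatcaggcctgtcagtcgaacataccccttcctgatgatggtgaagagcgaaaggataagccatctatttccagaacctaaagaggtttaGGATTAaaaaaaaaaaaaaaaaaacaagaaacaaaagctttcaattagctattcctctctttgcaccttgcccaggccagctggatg
Grk1, chr8:13404831-13405080, plus strand: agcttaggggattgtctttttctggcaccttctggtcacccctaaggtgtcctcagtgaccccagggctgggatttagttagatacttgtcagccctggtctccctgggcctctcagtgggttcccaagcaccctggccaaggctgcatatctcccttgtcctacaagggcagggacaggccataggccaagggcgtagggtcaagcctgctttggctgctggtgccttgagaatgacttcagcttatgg
Gucy2e, chr11:69237023-69237272, minus strand: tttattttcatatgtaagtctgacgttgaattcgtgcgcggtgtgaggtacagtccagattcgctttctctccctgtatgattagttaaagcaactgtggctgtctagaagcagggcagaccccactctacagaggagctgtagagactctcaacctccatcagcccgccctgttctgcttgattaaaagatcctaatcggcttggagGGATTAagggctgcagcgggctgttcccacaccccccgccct
Guca1a, chr17:47400607-47400856, minus strand: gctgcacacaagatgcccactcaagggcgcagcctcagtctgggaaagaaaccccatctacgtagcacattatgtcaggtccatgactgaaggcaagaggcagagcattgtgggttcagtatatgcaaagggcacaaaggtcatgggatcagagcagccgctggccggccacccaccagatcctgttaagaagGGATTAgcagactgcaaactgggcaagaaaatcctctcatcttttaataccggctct
Abca4, chr3:122044210-122044459, plus strand: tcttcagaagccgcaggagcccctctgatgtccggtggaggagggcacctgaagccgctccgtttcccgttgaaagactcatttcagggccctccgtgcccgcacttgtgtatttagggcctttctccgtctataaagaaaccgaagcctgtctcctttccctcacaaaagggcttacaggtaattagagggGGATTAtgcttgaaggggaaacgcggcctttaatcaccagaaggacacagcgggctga
Aipl1, chr11:72037510-72037759, minus strand: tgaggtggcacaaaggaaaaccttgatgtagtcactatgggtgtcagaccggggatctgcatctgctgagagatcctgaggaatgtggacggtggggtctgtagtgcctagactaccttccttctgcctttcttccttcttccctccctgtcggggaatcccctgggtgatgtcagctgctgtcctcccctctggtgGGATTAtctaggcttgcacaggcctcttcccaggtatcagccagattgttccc
In 6 of these windows the CRX core begins 42 to 87 bases before the listed transcript start, on the reverse strand in Gngt1, Sag, Gucy2e, Guca1a, Abca4 and Aipl1. In Cnga1 it begins 228 bases before it, on the forward strand. The listed transcripts of Grk1 and Cnga1 start at the 5′ end of the gene in the RefSeq table. Those of the other 6 start inside the gene, from 257 bases (Gucy2e) to 12908 bases (Guca1a) from its 5′ end, so these windows lie within the annotated gene and not upstream of it.

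The transducin genes encode the rod G protein: Gnat1 its alpha subunit, Gnb1 the beta subunit and Gngt1 the gamma subunit. Gnat1 stood at 7.50, 7.70 and 7.61 in PBS, at 7.42, 7.60 and 7.78 in AAP and at 7.46, 7.42 and 7.27 in HAN. All HAN pools lay below all PBS pools, and the AAP pools overlapped both other groups. The difference of HAN from PBS was -0.22 (SE 0.11, 95% interval -0.46 to 0.03, limma adjusted p = 0.554), and that of AAP from HAN was 0.22 (SE 0.11, limma adjusted p = 0.576). Groups failed to overlap in that direction, with HAN lower than PBS, for 3 rod genes (Gnat1, Sag and Rcvrn), against a background of 10.4% of all genes.

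Gngt1 stood at 6.65, 6.96 and 6.92 in PBS, at 6.68, 6.77 and 6.97 in AAP and at 6.59, 6.70 and 6.51 in HAN. HAN 2 lay above PBS 1, so the groups overlapped. HAN differed from PBS by -0.25 (SE 0.11, limma adjusted p = 0.529). Gnb1, which many cell types use, differed by 0.08 in AAP and by 0.0064 in HAN, and the HAN value was negative under 3 of the 6 scalings.

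The cGMP phosphodiesterase consists of the catalytic subunits Pde6a and Pde6b and the inhibitory subunit Pde6g. Pde6b stood at 3.51, 3.80 and 3.84 in PBS, at 3.60, 3.80 and 4.23 in AAP and at 3.63, 3.57 and 3.47 in HAN. AAP 3 stood above all other arrays, and the 3 groups overlapped. AAP differed from HAN by 0.32 (SE 0.16, limma adjusted p = 0.582), and AAP and HAN differed from PBS by 0.16 and -0.16. Pde6a was at 0.047 and -0.15 and Pde6g at 0.09 and 0.04 in the same comparisons with PBS.

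The channel that closes in the light is built from Cnga1 and Cngb1, and the exchanger Slc24a1 removes the calcium that enters through it. Cnga1 stood at 5.42, 5.73 and 5.76 in PBS, at 5.47, 5.55 and 5.91 in AAP and at 5.39, 5.46 and 5.30 in HAN. The HAN pools lay narrowly below all AAP pools, and overlapped PBS through PBS 1. AAP differed from HAN by 0.26 (SE 0.14, limma adjusted p = 0.587) and HAN from PBS by -0.26 (limma adjusted p = 0.581). Cngb1 differed from PBS by 0.07 in AAP and -0.06 in HAN, and Slc24a1 by -0.05 and -0.09.

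Among the proteins that end the response, arrestin (Sag) binds the phosphorylated pigment, the kinase Grk1 phosphorylates it, Rgs9 speeds GTP hydrolysis on transducin, recoverin (Rcvrn) is the calcium sensor that restrains the kinase, and phosducin (Pdc) binds the beta-gamma subunits of transducin. The members with an unadjusted p under 0.05 were Rcvrn in AAP against PBS, Sag and Rcvrn in HAN against PBS, and Sag and Grk1 in AAP against HAN. These were 1, 2 and 2 of the 5 genes of this role, and no gene of another role had such a p. Over the whole rod set they were 2.94%, 5.88% and 5.88%, below the 6.78%, 9.66% and 8.54% of all genes. Whether this role differs from the others was not tested.

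Sag stood at 6.18, 6.53 and 6.51 in PBS, at 6.31, 6.45 and 6.42 in AAP and at 6.14, 6.10 and 6.09 in HAN. All HAN pools lay below all pools of both other groups, and the HAN pools differed from each other by less than those of PBS (SD 0.03 in HAN, 0.20 in PBS, n = 3). HAN differed from PBS by -0.30 (SE 0.10, 95% interval -0.53 to -0.07, limma adjusted p = 0.444) and AAP from HAN by 0.29 (SE 0.10, limma adjusted p = 0.574). The difference of HAN from PBS lay between -0.45 and -0.24 under the 6 scalings.

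Rcvrn stood at 6.61, 6.84 and 6.74 in PBS, at 6.39, 6.59 and 6.47 in AAP and at 6.40, 6.57 and 6.53 in HAN. Every pool of either peptide lay below every PBS pool, which no other rod gene showed. The differences from PBS were -0.25 in AAP (SE 0.09, 95% interval -0.45 to -0.05, limma adjusted p = 0.687) and -0.23 in HAN (SE 0.09, 95% interval -0.43 to -0.03, limma adjusted p = 0.484). AAP and HAN differed by -0.02 (95% interval -0.22 to 0.18). Rcvrn was the only rod gene whose AAP pools lay below all PBS pools, against a background of 5.53% of all genes, and no rod gene lay above, against 6.43%.

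Grk1 stood at 4.66, 5.01 and 4.82 in PBS, at 4.97, 4.96 and 5.20 in AAP and at 4.86, 4.78 and 4.58 in HAN. Its AAP pools lay above all HAN pools and overlapped PBS through PBS 2. AAP differed from HAN by 0.30 (SE 0.12, 95% interval 0.03 to 0.58, limma adjusted p = 0.574), and a dimmer Grk1 probe by 0.30 as well. Such a gap between AAP and HAN, with AAP higher, was found in Cnga1, Sag, Grk1 and Abca4, 4 of 34 rod genes, against 7.51% of all genes; the opposite gap was found in 0 rod genes, against 6.81%.

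Rgs9 stood at 0.88, 1.22 and 1.09 in PBS, at 1.17, 1.30 and 1.65 in AAP and at 1.25, 1.09 and 1.07 in HAN. AAP 3 was the highest, and AAP 1 lay below PBS 2. The difference of AAP from PBS was 0.31 (SE 0.14, 95% interval -0.01 to 0.64, limma adjusted p = 0.731), with 2 dimmer Rgs9 probes at 0.10 and 0.03. Pdc differed from PBS by 0.02 in AAP and by -0.06 in HAN.

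**Figure D3:**
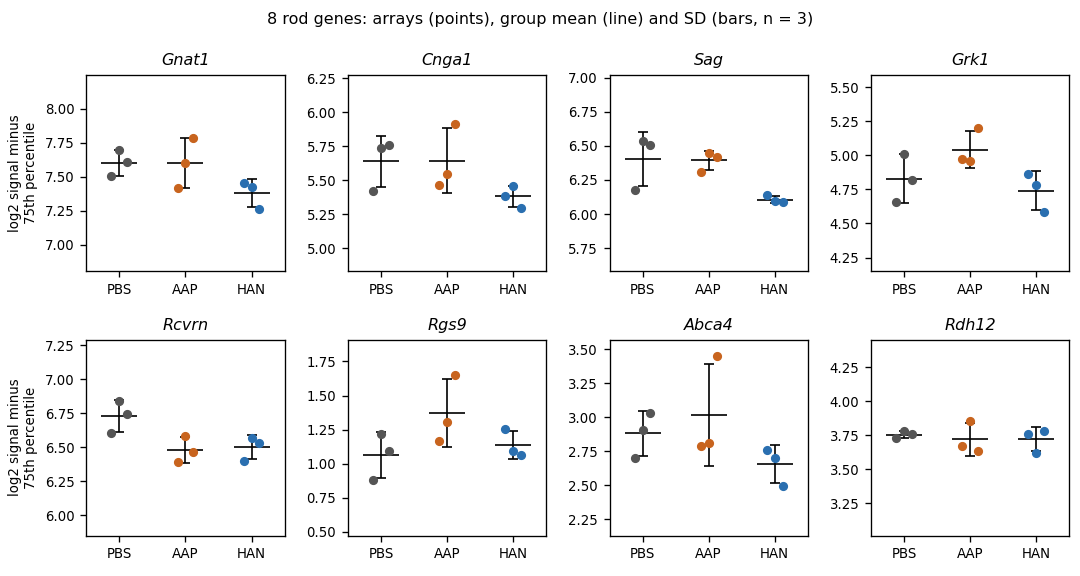
Scaled log2 level (y axis, each panel spanning the same range) of 8 rod genes in the 3 groups, with a point per array, the group mean as a line and the SD as bars (n = 3). Sag in HAN lies between 6.09 and 6.14, below all other pools, Rcvrn in PBS lies between 6.61 and 6.84, above all other pools, and Rdh12 varies by 0.23 over the 9 arrays.

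The cyclases Gucy2e and Gucy2f make cGMP again once calcium has fallen, under control of the calcium sensors Guca1a and Guca1b. Guca1a stood at 5.47, 5.83 and 5.78 in PBS, at 5.52, 5.66 and 5.87 in AAP and at 5.52, 5.50 and 5.40 in HAN. HAN 1 lay above AAP 1 and all HAN pools but HAN 3 lay above PBS 1, so the groups overlapped. HAN differed from PBS by -0.22 (SE 0.12, limma adjusted p = 0.591).

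Gucy2e stood at -0.46, -0.12 and -0.33 in PBS, at -0.43, -0.35 and 0.03 in AAP and at -0.32, -0.37 and -0.41 in HAN. All 3 groups overlapped, with AAP 3 and PBS 2 highest. It differed from PBS by 0.06 in AAP and -0.06 in HAN (limma adjusted p = 0.948 and 0.915). Gucy2f was at 0.08 and -0.07, and Guca1b at -0.0088 and -0.10, with a dimmer Guca1b probe at 0.04 and -0.26.

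Nrl, the transcription factor that directs cells to the rod fate, stood at 7.20, 7.42 and 7.43 in PBS, at 7.22, 7.37 and 7.66 in AAP and at 7.25, 7.23 and 7.19 in HAN. The HAN pools lay close together (SD 0.03, n = 3), and PBS 1 and AAP 1 lay among them. Nrl differed from PBS by 0.07 in AAP and -0.13 in HAN (limma adjusted p = 0.924 and 0.767), and a slightly dimmer probe by 0.16 and 0.0067. Nr2e3, the nuclear receptor that acts with Nrl and represses cone genes, was at -0.11 and -0.10.

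The discs and the cilium that carries them were represented by the rim proteins Prph2 and Rom1, the disc protein Prom1, the microtubule-associated proteins Rp1 and Rp1l1, and Tulp1, which takes part in transport to the outer segment. Rp1l1 stood at 0.82, 1.03 and 1.06 in PBS, at 0.95, 1.17 and 1.46 in AAP and at 1.04, 0.95 and 0.76 in HAN. AAP 3 was again the highest array and HAN 3 the lowest, and the groups overlapped. AAP differed from HAN by 0.28 (SE 0.14, limma adjusted p = 0.582), with a dimmer probe at 0.40.

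Prom1 stood at 5.39, 5.79 and 5.66 in PBS, at 5.49, 5.49 and 5.96 in AAP and at 5.41, 5.43 and 5.50 in HAN. AAP 3, PBS 2 and PBS 3 were high, and the other arrays lay between 5.39 and 5.50. Prom1 differed from PBS by 0.03 in AAP and -0.17 in HAN (limma adjusted p = 0.977 and 0.75), and a dimmer probe by -0.13 and -0.31. Among the others, the differences from PBS were 0.15 and 0.05 for Prph2, 0.09 and -0.15 for Rom1, 0.0059 and -0.01 for Rp1, and 0.03 and -0.21 for Tulp1, in AAP and HAN in turn.

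The retinoid genes handle the spent chromophore: Abca4 moves retinal across the disc membrane, Rdh8 and Rdh12 reduce it, and Rbp3 carries retinoids through the matrix around the outer segments, of which Impg1 and Impg2 are proteoglycans. Abca4 stood at 2.70, 2.91 and 3.03 in PBS, at 2.79, 2.81 and 3.45 in AAP and at 2.76, 2.70 and 2.50 in HAN. It spanned 0.95 over the 9 arrays, the widest range of the 34 genes, with AAP 3 at the top and HAN 3 at the bottom. AAP differed from HAN by 0.36 (SE 0.18, 95% interval -0.07 to 0.79, limma adjusted p = 0.582). Abca4 was added to the genes with full values because its AAP and HAN pools did not overlap.

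Impg2 stood at 3.24, 3.65 and 3.43 in PBS, at 3.27, 3.31 and 3.46 in AAP and at 3.18, 3.16 and 3.32 in HAN. The groups overlapped, with PBS 2 highest. HAN differed from PBS by -0.22 (SE 0.11, limma adjusted p = 0.568). Impg1 was at -0.14 in AAP and -0.11 in HAN against PBS, Rbp3 at -0.07 and -0.07, and Rdh8 at 0.08 and -0.02. Rdh8 had the lowest signal of the rod probes, 119.9 in AAP 3, and its values depended on the scaling. Over the 6 scalings its difference ran from -0.11 to 0.63 in HAN against PBS and from -0.46 to 0.13 in AAP against HAN.

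Rdh12 shared the order of the PBS pools, within a narrow range, but not that of the AAP pools. It stood at 3.73, 3.78 and 3.76 in PBS, at 3.67, 3.86 and 3.64 in AAP and at 3.76, 3.62 and 3.78 in HAN. AAP 3 and HAN 2 were its lowest arrays. Both differences from PBS were -0.03 (95% interval -0.21 to 0.15 in each).

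The chaperones Aipl1, needed for assembly of the phosphodiesterase, and Unc119, which carries the transducin alpha subunit, completed the set. Aipl1 stood at 1.05, 1.38 and 1.49 in PBS, at 1.04, 1.27 and 1.66 in AAP and at 1.12, 0.94 and 0.90 in HAN. HAN 1 lay above PBS 1 and AAP 1, so the groups overlapped. HAN differed from PBS by -0.32 (SE 0.17, 95% interval -0.72 to 0.08, limma adjusted p = 0.587), and AAP from HAN by 0.34 (SE 0.17, limma adjusted p = 0.583). Unc119 was at 0.18 in AAP and -0.04 in HAN against PBS.

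Of 11 rod genes with several probes, the probes had the same sign in 8 for AAP against PBS, in 6 for HAN against PBS and in 11 for AAP against HAN. Probe differences within a gene spread by at most 0.28 in AAP against PBS (Rgs9) and 0.23 in HAN against PBS (Rp1l1), which is as wide as the differences between the groups.

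The pools also differed in tissue from outside the neural retina, and the rod values were set against it. The level of lens genes, as the mean of 23 of 23 listed crystallins and lens fibre genes against the PBS mean, ranged from -2.06 to 1.09 in PBS, from -1.96 to 2.27 in AAP and from 0.50 to 1.34 in HAN. In PBS the pool with the least lens signal, PBS 2, had the highest rod level. The same held in AAP for AAP 3, at -1.96. AAP 1, at -1.34, also had little lens signal but the lowest rod level of its group, and AAP 2, at 2.27, had the middle one. All 3 HAN pools had more lens signal than the PBS mean and a lower rod level than it. That mean is lowered by PBS 2, and PBS 1 and PBS 3 lay within the HAN range of lens signal, at 1.09 and 0.97. Their rod levels were -0.16 and 0.04, so pools of like lens signal differed in rod level.

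The slope of each rod gene on the lens level within groups was small and not called. The median slope was -0.033 log2 units per log2 unit of lens level, negative in 30 of 34 genes, where the median over all genes was -0.0053. The test called 0 rod genes, with 0.28% of all genes called, and 0 had an unadjusted p under 0.05, against 7.33% of all genes. The smallest p were those of Grk1 (-0.06, SE 0.03, limma adjusted p = 0.711), Prom1 (-0.08, SE 0.04, limma adjusted p = 0.718) and Gucy2e (-0.07, SE 0.03, limma adjusted p = 0.718). With the lens level as a covariate, the rod medians were 0.011 in AAP against PBS, -0.080 in HAN against PBS and 0.13 in AAP against HAN. The median slope was -0.0092 without AAP 3, and -0.067 without AAP 2. With the muscle level as a further covariate it was -0.077, negative in 34 of 34 genes, and 8 rod genes had an unadjusted p under 0.05, against 5.95% of all genes. Without AAP 1 there were also 8, against 12.1% of all genes, at a median slope of -0.054. Neither of these fits called a rod gene.

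**Figure D4:**
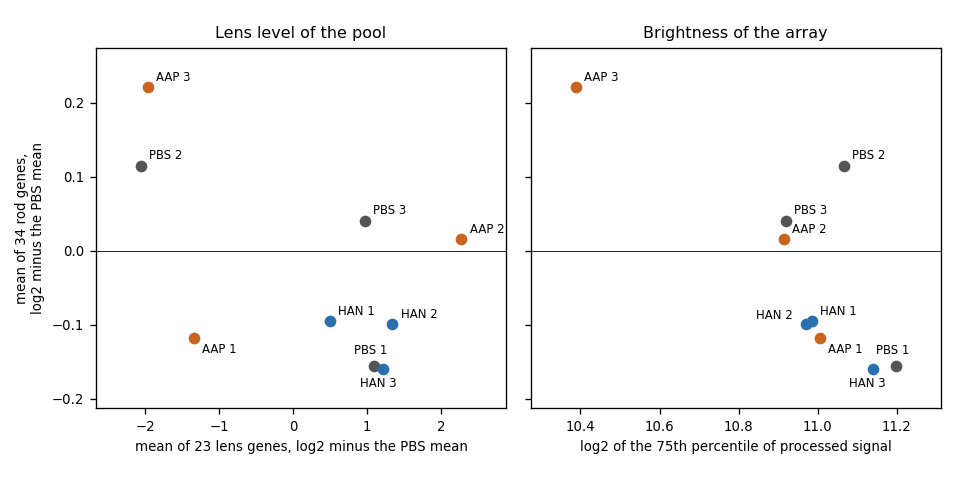
Mean scaled level of the 34 rod genes against the PBS mean (y axes, log2) plotted for each array against the mean of 23 lens genes (left) and the log2 of the array's 75th percentile of processed signal (right), with points coloured by group. PBS 2 and AAP 3 combine low lens signal with high rod levels, but AAP 1 does not, and AAP 3 stands apart as the dimmest array.

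Rod levels also varied with the brightness of the array, a comparison added after the values were seen. The 75th percentile of the signal ran from 1340 (AAP 3) to 2349 (PBS 1). Within groups the median slope of the rod genes on its log2 was -0.52, negative in 32 of 34 genes, where the median over all genes was -0.01. The test called 0 rod genes and 0% of all genes, with a lowest rod adjusted p of 0.0643 in limma, and 21 of 34 rod genes had an unadjusted p under 0.05, against 20.4% of all genes. Since the scaled level is the signal minus this percentile on the log2 scale, a gene whose signal did not follow brightness at all has a slope of -1 by construction. Before scaling, the rod mean stood at -0.45 against the PBS mean in AAP 3 and between -0.19 and 0.12 on the other arrays. Abca4 had the steepest slope (-1.14, SE 0.12, limma adjusted p = 0.0643).

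With brightness as a covariate the rod median was -0.10 in AAP against PBS, with 4 of 34 genes higher, -0.11 in HAN against PBS and 0.019 in AAP against HAN. Without AAP 3 the medians were -0.059 in AAP against PBS and 0.063 in AAP against HAN. The excess of AAP over HAN was thus smaller without AAP 3. This array was the dimmest and also had the highest rod level, and what lowered the excess was not tested.

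Skeletal muscle transcripts marked the AAP pools unevenly, with the mean of 12 tested of 16 listed genes at 5.41 in AAP 1, -0.05 in AAP 2 and 4.12 in AAP 3 against the PBS mean, between -0.30 and 0.35 in PBS and between -0.03 and 0.0024 in HAN. The pools with muscle signal, AAP 1 and AAP 3, held the lowest and the highest rod level of their group. AAP 2 alone gave a rod median of 0.0064 against PBS, with 19 of 34 genes higher, and of 0.099 against HAN, with 33 of 34 higher. Microglia markers, 13 tested of 14, ranged from -0.11 to 0.07 in PBS, from -1.16 to -0.36 in AAP and from -1.004 to -0.18 in HAN, and gliosis markers, 13 of 13, from -0.14 to 0.11, from -2.09 to -0.64 and from -0.92 to -0.26. The part of microglia and gliosis in the rod values was not tested.

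The arrays sat on 3 slides, and the groups were not spread evenly over them. Slide 1 held PBS 1, PBS 2, PBS 3 and AAP 1, slide 2 held AAP 2, AAP 3, HAN 1 and HAN 2, and slide 3 held HAN 3. Within slide 1, AAP 1 differed from PBS by a rod median of -0.12, with 3 of 34 genes higher, so the sign was opposite to that over all arrays. Within slide 2, AAP 2 and AAP 3 differed from HAN 1 and HAN 2 by 0.23, with 34 of 34 genes higher. No slide held both HAN and PBS, and with slide as a fixed block, where HAN is linked to PBS only through the AAP pools, the median was -0.34 with 0 of 34 genes higher. None of these fits called a rod gene.

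Other photoreceptor genes were taken as a second list of 45, of which 44 were tested, to see how the rest of the cell type behaved. They include the transcription factor Crx, synaptic channel subunits and proteins of the cilium. The test called 0 of 44 in AAP against PBS and in HAN against PBS, with medians of 0.04 and -0.02, and 0 in AAP against HAN, with a median of 0.07. Their mean had the same highest and lowest pools within PBS and AAP as the rod genes, at -0.12, 0.09 and 0.02 in PBS and -0.06, 0.02 and 0.18 in AAP. In HAN it was between -0.03 and -0.02, nearer to PBS than the rod mean was. The sign of their HAN median turned to 0.0057 with cyclic loess, and that of their AAP median against PBS to -0.034 with arrays centred on inner retinal neurons. Crx differed by -0.23 in HAN against PBS (SE 0.17, limma adjusted p = 0.694), and Mef2c by 0.24 (limma adjusted p = 0.582).

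Cone genes, 12 of 12 tested, had medians of -0.10 in AAP against PBS, with 9 of 12 lower, and -0.10 in HAN against PBS, with 11 of 12 lower, and 0 were called. Rxrg, a retinoid receptor of cones, differed by -0.26 and -0.27 (limma adjusted p = 0.687 and 0.436), and Gnb3, the cone transducin beta subunit, by -0.35 and -0.41 (limma adjusted p = 0.727 and 0.461). Inner retinal neuron genes, 43 tested of 44, had medians of 0.06 and 0.08 under the main scaling, and of about 0 by construction where the arrays were centred on them (-0.01 and -0.0085). Within that list, ganglion cell genes were higher in 14 of 14 in both comparisons under the main scaling, with medians of 0.17 and 0.23, above 0 under each of the 6 scalings. Amacrine and horizontal cell genes had medians of -0.03 and 0.01 and bipolar cell genes of 0.05 and 0.04 under the main scaling. The test called 0 ganglion cell genes (limma, adjusted p), and 2 and 3 of 14 had an unadjusted p under 0.05, against 6.78% and 9.66% of all genes. Thus in HAN against PBS the rod and ganglion cell medians had opposite signs. In HAN against PBS, the rod median was -0.18 with arrays centred on the inner retinal neuron list, with 0 of 34 genes higher. That list holds the ganglion cell genes, and the centring shifts all genes of an array alike. This value is therefore not separate from the difference of that list. No test of a difference between these lists was made.

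**Figure D5:**
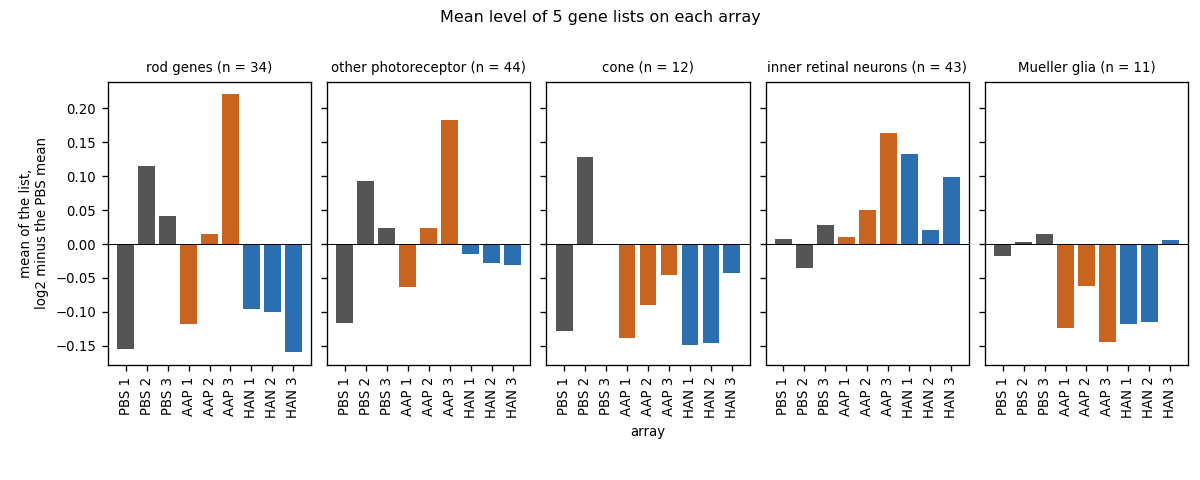
Mean scaled level against the PBS mean (y axis, log2) of 5 gene lists on each array, coloured by group. The rod and the other photoreceptor lists share PBS 2 and AAP 3 as their highest arrays; in the HAN arrays the rod means lie at -0.16 to -0.10 and the inner retinal neuron means at 0.02 to 0.13, the latter list with a median difference from PBS above 0 under 5 of 6 scalings and near 0 where the arrays were centred on it.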

How the data were processed

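Per the file headers, spots were read by Agilent Feature Extraction 11.0.1.1 (protocol GE1_1100_Jul11, design annotated on mm9), and the deposited processed signal is a linear intensity after background subtraction, with arrays not yet scaled to each other. The authors also deposited a value table of the same intensity (at least 99.7% of values equal within a relative tolerance of 0.0001), with column medians of 298.3, 256.4 and 231.9 in PBS, 265.5, 237.6 and 164.7 in AAP, and 251.1, 242.5 and 296.5 in HAN. Their tests between groups are not given in the sources used here.

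Control spots and outlier spots (103 to 160 on an array) were left out, log2 signals were centred on each array's 75th percentile, and spots of a probe were averaged. The filter asked for a signal well above background on each of the 3 arrays of some group, and the brightest such probe stood for its gene. Accessions were matched to symbols through a RefSeq table of GRCm38.p6 (26055 probes, 19751 symbols). limma 3.58.1 in R 4.3.3 fitted group means over 9 arrays (6 residual and 1.85 prior degrees of freedom), two-sided, with Benjamini-Hochberg adjustment, and was tested on simulated data. The slopes added the lens level or the brightness. Their number, 3 arrays in a group, limits the precision.

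The members and lists were chosen with earlier results of these data known. Values on every array were given by rule for the 3 rod genes with the smallest p in each comparison and in the lens slope, and for the gene with the smallest p of an F test in each role; Abca4 and Rdh12 were added after their values were seen. The normexp alternative used the median spot signal with the median local background, the spot signal that the files hold.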

Additional observations from a re-analysis of the deposited data

How the results depend on the processing

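No alternative that was run called a rod gene in a comparison or a slope, but with so few calls over all genes, and a single array in an arm of some fits, this says nothing of stability. The rod median left the spread between pools under few of them. With slide as a fixed block it was -0.12 in AAP against PBS, as within slide 1, and -0.34 in HAN against PBS. With array brightness as a covariate it was -0.10 in AAP against PBS and 0.019 in AAP against HAN. The median slope on the lens level was -0.077 with the muscle level as a further covariate and -0.067 without AAP 2. The slope on brightness was -0.29 with quantile normalization, -0.33 with centring on inner retinal neurons, -0.32 with cyclic loess and -0.73 without AAP 3. The cause was not tested. Leaving out each array in turn gave medians from -0.059 to 0.13 in AAP against PBS, from -0.17 to -0.046 in HAN against PBS and from 0.063 to 0.26 in AAP against HAN, lens slopes from -0.067 to -0.0092 and brightness slopes from -0.73 to -0.46. AAP against PBS also turned sign with array weights (-0.021), without PBS 1 (-0.048) and without AAP 3 (-0.059). The HAN median was -0.22 with normexp background correction, which also widened the spread between arrays. With the replicate number as a block the medians were 0.033, -0.10 and 0.17 and 0 rod genes were called. After removal of group means, same-numbered pools of different groups had correlations from -0.28 to 0.40, and differently numbered ones from -0.62 to 0.54. Same-numbered pools thus showed no visible shared pattern, but these values cannot show how the pools were collected. Over all genes, the calls ran from 0 to 79 in AAP against PBS (79 within slide 1), from 0 to 3 in HAN against PBS and from 0 to 13 in AAP against HAN. Brightness and cyclic loess were chosen after seeing the data. No within-slide value exists for HAN against PBS.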
